A study of Mus musculus with 8 samples.

Results

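The Id and TGF-beta/BMP feedback family, 10 of the 16888 genes in the deposited table, was followed in the inflamed mouse pancreas. It holds the Id genes Id1, Id2, Id3 and Id4, the pathway inhibitors Smad6, Smad7 and Bambi, the ligand gene Tgfb1 and the receptor genes Tgfbr1 and Tgfbr2. The family was chosen by symbol around Id2, which was selected on its lower level in the knockout samples of this same comparison, so the difference in Id2 is given as a description with no test. The CKO group was 4 pancreas samples from mice with a myeloid-specific knockout of Anxa1, and the WT group was 4 pancreas samples from mice with both Anxa1 alleles floxed. Mice of both groups had received repeated injections of cerulein, a cholecystokinin analogue that overstimulates acinar cells and causes acute pancreatitis, and no untreated group was analysed here. The labels do not name the Cre driver, the age or the sampling time, and they do not say whether replicates were separate animals, so p-values measure the spread between these samples. The comparison asks what loss of Anxa1 from myeloid cells changes in the RNA of the inflamed organ. Anxa1 encodes annexin A1, which binds membrane phospholipids and dampens inflammation.

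Id proteins are helix-loop-helix proteins without a DNA-binding region. They pair with E proteins and other basic helix-loop-helix factors and keep them off DNA, and their genes are classic targets of BMP signals through Smad proteins. TGF-beta ligands bind the type II receptor TGFBR2, which then activates the type I receptor TGFBR1. SMAD6, SMAD7 and BAMBI act as feedback inhibitors at the level of the receptors. In the pancreas, TGF-beta is best known for activating stellate cells and driving matrix deposition after injury, while acinar identity rests on basic helix-loop-helix factors such as PTF1A and MIST1.

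Levels are in RPKM, reads scaled to the length of the gene and to the total of the library, which allows a rough comparison between genes. The length recovered from the values equalled that of an annotated transcript for only 1 of the 10 genes, so such comparisons are approximate. Library totals recovered from these values ran from 30469002 to 34359802 reads. Acinar enzyme transcripts made up 53.6% to 62.3% of reads in CKO libraries and 54.9% to 58.1% in WT libraries. Anxa1 itself was at 4.84, 4.76, 5.21 and 7.13 RPKM in CKO1 to CKO4, against 8.44, 14.7, 7.05 and 9.74 RPKM in WT1 to WT4 (log2 change -0.73, SE 0.19, limma adjusted p = 0.0417). The tissue holds many cell types that keep Anxa1, and in whole tissue fewer cells of a type and less RNA per cell cannot be told apart.

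Id2 was the most abundant of the 10 genes in WT pancreas and was lower in every CKO library. It stood at 6.55, 8.95, 7.74 and 5.33 RPKM in CKO1 to CKO4, against 22.2, 26.05, 24.5 and 21.96 RPKM in WT1 to WT4. The highest CKO library therefore lay far below the lowest WT library. The means were 7.14 ± 1.56 RPKM in CKO and 23.7 ± 1.94 RPKM in WT (SD, n = 4 each), a ratio of 0.302, from 1226 reads in the CKO libraries and 3786 reads in the WT libraries. The log2 change of log2(RPKM + 1) was -1.62 (SE 0.14), and it stayed between -1.75 and -1.50 in 16 other settings, among them the omission of each library. These settings reuse the values on which Id2 was chosen, so that range is a description and not a test. Id2 lies on chromosome 12 from 25093799 to 25097140, on the minus strand of mm10, and no other annotated gene overlaps it.

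**Figure D1:**
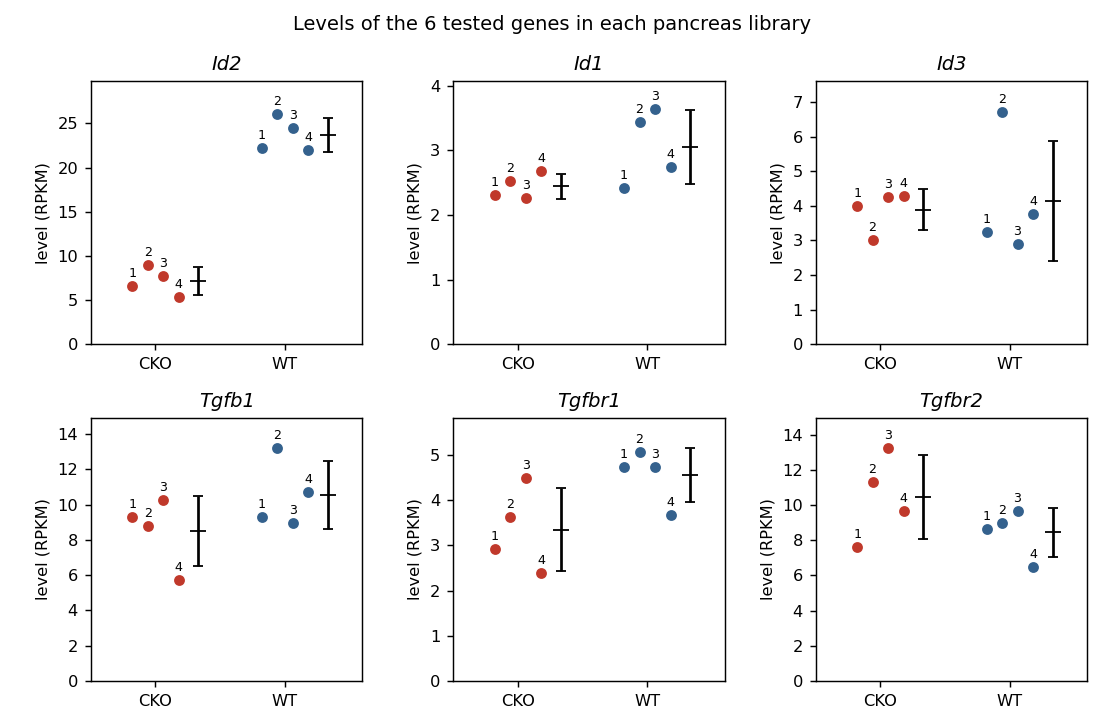
Level in RPKM of the 6 members that passed the filter on low values, in the 4 CKO (red) and 4 WT (blue) libraries. Numbers are replicate numbers, and the black bars give the mean and SD of each group. Id2 is below 9 RPKM in all CKO libraries and above 21 RPKM in all WT libraries, while the groups overlap for the other 5 genes.

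Id1 and Id3, the close relatives of Id2 that are also BMP targets, showed no difference of that size. Id1 was at 2.32, 2.52, 2.26 and 2.68 RPKM in CKO1 to CKO4, against 2.42, 3.43, 3.64 and 2.74 RPKM in WT1 to WT4. The groups overlapped, since WT1 fell inside the CKO range. The log2 change of Id1 was -0.23 with a 95% interval of -0.50 to 0.04 (limma adjusted p = 0.26). Id3 was at 3.99, 3.02, 4.24 and 4.29 RPKM in CKO1 to CKO4, against 3.23, 6.70, 2.89 and 3.75 RPKM in WT1 to WT4. WT2 was the highest library and WT3 the lowest, so the CKO values lay within the WT range. Its log2 change was -0.03, with a 95% interval of -0.45 to 0.39 (limma adjusted p = 0.942), and its sign turned to 0.18 without WT2. The ratio of means, CKO over WT, was 0.799 for Id1 and 0.938 for Id3, against 0.302 for Id2, which was chosen on its difference. Log2 changes compare these genes less well, since the added 1 RPKM shrinks those of low genes more. The difference between the genes was not tested.

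The summed Id transcripts show how much of the family's level Id2 supplies. The sum, which contains the gene used for the choice, was 12.3 to 14.5 RPKM in CKO libraries, against 27.95 to 36.2 RPKM in WT libraries. Id2 supplied 50.9%, 61.7%, 54.3% and 43.3% of that sum in CKO1 to CKO4, against 79.5%, 71.9%, 78.8% and 77.0% in WT1 to WT4. The share of Id3 averaged 29.1 ± 5.9% in CKO and 13.1 ± 3.9% in WT (SD, n = 4 each), and that of Id1 18.3 ± 2.5% in CKO and 9.87 ± 1.30% in WT (SD, n = 4 each). The sum and the shares both follow from the low Id2 level in CKO and carry no separate test. Within a library the shares do not depend on the total used to scale it, whereas the sum does.

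**Figure D2:**
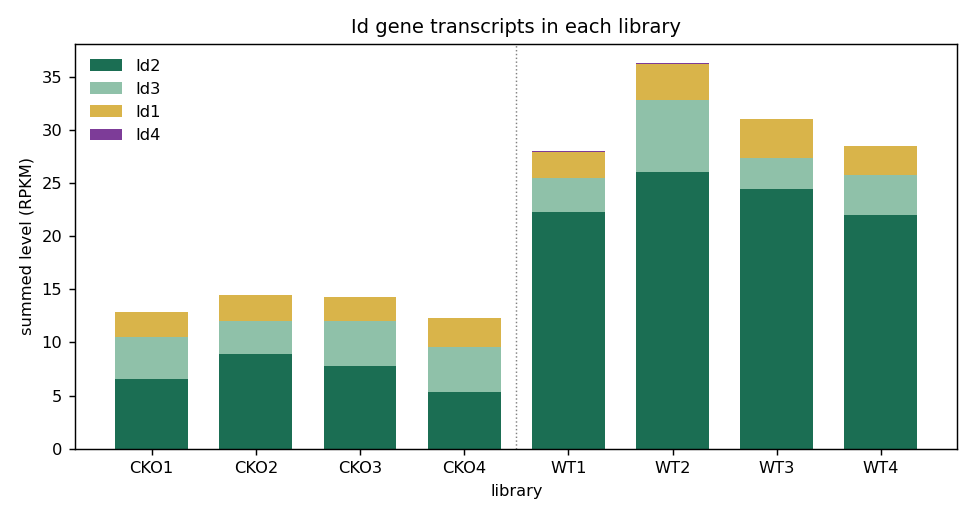
Summed level in RPKM of Id2, Id3, Id1 and Id4 in each library, stacked from bottom to top. The CKO columns reach 12.3 to 14.5 RPKM and the WT columns 27.95 to 36.2 RPKM, and the dark Id2 segment accounts for most of the gap.

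Id4, the least abundant Id gene and one known mainly from the nervous system, was counted in very few reads. There were 1, 0, 2 and 3 reads in CKO1 to CKO4, against 10, 8, 6 and 7 reads in WT1 to WT4. Every CKO library was at or below the floor of 3 reads, and every WT library was above it. The 6 CKO reads and 31 WT reads, scaled to library totals, gave a ratio of 0.181 with an exact 95% interval of 0.0618 to 0.441 that covers counting error only. The exact two-sided permutation test over 70 arrangements gave p = 0.0286, the smallest it can give with 4 against 4. With no filter on low values, Id4 passed in limma (adjusted p = 0.0286), as did 2.75% of the 16888 genes of that fit. The noncoding genes A330033J07Rik and Gm49291 overlap exons of Id4 on the other strand, and no source used here states whether reads were assigned by strand, so its few reads are uncertain.

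Id2 and Id4 were thus the 2 members of 10 whose groups did not overlap, both lower in CKO, where 14.3% of all 16888 genes had groups that did not overlap in either direction. One of them chose the family, so nothing is read from that count. The promoters of these genes are shown beside that of Id3, whose groups overlapped, to show the letters that Smad proteins are known to bind. Each run is the 250 bases before the RefSeq transcription start in GRCm38, written along the gene's own strand. Capitals mark GGCGCC, the GC-rich element that Smad proteins of the BMP branch bind, and CAGAC or its reverse complement GTCTG, the Smad-binding element.
Id2 (chr12:25096093-25096342, minus strand): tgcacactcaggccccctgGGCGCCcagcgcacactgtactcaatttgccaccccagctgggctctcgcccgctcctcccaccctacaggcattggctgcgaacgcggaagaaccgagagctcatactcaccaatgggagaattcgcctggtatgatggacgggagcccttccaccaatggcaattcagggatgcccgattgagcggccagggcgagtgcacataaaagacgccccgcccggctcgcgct
Id4 (chr13:48260866-48261115, plus strand): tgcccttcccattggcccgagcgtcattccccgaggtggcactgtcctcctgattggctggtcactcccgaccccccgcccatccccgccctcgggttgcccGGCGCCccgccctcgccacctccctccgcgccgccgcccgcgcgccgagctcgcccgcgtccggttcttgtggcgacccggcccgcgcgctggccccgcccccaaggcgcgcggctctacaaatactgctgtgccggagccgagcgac
Id3 (chr4:136143572-136143821, plus strand): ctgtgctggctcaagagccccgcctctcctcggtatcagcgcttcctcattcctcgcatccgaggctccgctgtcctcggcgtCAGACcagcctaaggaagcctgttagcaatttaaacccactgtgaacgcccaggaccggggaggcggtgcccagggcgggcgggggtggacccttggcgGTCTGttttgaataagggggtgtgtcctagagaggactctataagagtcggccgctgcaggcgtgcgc

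GGCGCC occurred once in the window of Id2, beginning at position -231 from its start, and once in that of Id4, at -148. It also occurred at -233 in 1 of the 2 windows of Tgfbr1, whose groups overlapped, so it did not set apart the genes with separate groups. Id3 held 0 of them and 2 CAGAC elements, beginning at positions -167 and -68. CAGAC also occurred in the window of Tgfbr2, at -160, and in the other window of Tgfbr1, at -203. Among all 32851 promoter windows of the RefSeq table, 9.59% held GGCGCC and 42.2% held CAGAC on either strand. The Id2 window also held 3 CCAAT boxes. Those of Id4 and Tgfbr2 held 2 each, as did the Tgfbr1 window with GGCGCC. Id3 and the other Tgfbr1 window had 0, against 33.8% of all windows with at least 1 on either strand. CACGTG and TGACGTCA, found in 6.02% and 1.55% of windows, occurred in none of the 3 windows printed. The windows of Tgfb1 and Smad6 held none of the 5 motifs. The RefSeq starts of Id3 and Id4 lie 42 and 112 bases from the nearest GENCODE start, and that of Id2 coincides with one. These matches are letters in a short window and were not tied to binding in any sample. Windows of 7 of the 10 genes were searched. Id1 had no entry in the RefSeq promoter table, and Smad7 and Bambi, both on chromosome 18, were left out of the search.

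The feedback inhibitors Smad6, Smad7 and Bambi were all low, and their groups overlapped. Smad7, the inhibitory Smad that recruits ubiquitin ligases to the TGF-beta receptor, was at 0.566, 1.26, 1.27 and 0.720 RPKM in CKO1 to CKO4, against 0.792, 0.862, 1.31 and 0.606 RPKM in WT1 to WT4. It reached 1 RPKM in 3 libraries, CKO2, CKO3 and WT3, and so missed the filter of 4 libraries. With no filter its limma adjusted p was 0.911, and the exact two-sided permutation p was 0.914. Smad6, which acts mainly on the BMP branch, had 33, 34, 19 and 20 reads in CKO1 to CKO4, against 26, 38, 23 and 20 reads in WT1 to WT4. That corresponded to 0.269 ± 0.076 RPKM in CKO and 0.291 ± 0.080 RPKM in WT (SD, n = 4 each; exact two-sided permutation p = 0.714). Bambi, a pseudoreceptor that lacks the kinase domain, had 13, 8, 18 and 9 reads in CKO1 to CKO4, against 16, 21, 11 and 29 reads in WT1 to WT4. Its ratio from summed reads was 0.583 with an exact 95% interval of 0.398 to 0.847 for counting error. The exact two-sided permutation p was 0.143 (limma with no filter, adjusted p = 0.303).

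**Figure D3:**
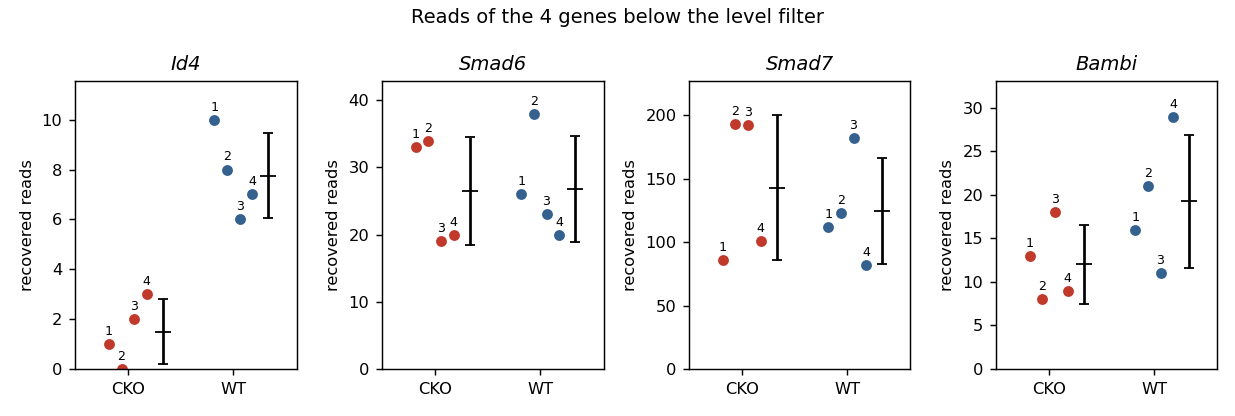
Recovered reads of the 4 members below the filter on low values, in the 4 CKO (red) and 4 WT (blue) libraries. Numbers are replicate numbers, and the black bars give the mean and SD. Id4 has at most 3 reads in CKO and at least 6 in WT, and the groups overlap for Smad6, Smad7 and Bambi.

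Tgfb1, the ligand gene, was at 9.27, 8.76, 10.3 and 5.71 RPKM in CKO1 to CKO4, against 9.31, 13.2, 8.97 and 10.7 RPKM in WT1 to WT4. CKO4 stood below every other library, and WT2 above. The log2 change was -0.29 with a 95% interval of -0.66 to 0.08 (limma adjusted p = 0.285). Tgfbr1, the type I receptor that phosphorylates SMAD2 and SMAD3, was at 2.91, 3.62, 4.49 and 2.38 RPKM in CKO1 to CKO4, against 4.73, 5.07, 4.74 and 3.68 RPKM in WT1 to WT4. The CKO libraries other than CKO3 lay below all WT libraries, and CKO3 lay above WT4. Its log2 change was -0.37 with a 95% interval of -0.71 to -0.03, which leaves out 0, but it did not pass after adjustment over all genes (limma adjusted p = 0.15).

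Tgfbr2, the type II receptor that binds the ligand first, ran the other way. It was at 7.63, 11.3, 13.3 and 9.63 RPKM in CKO1 to CKO4, against 8.66, 8.98, 9.68 and 6.46 RPKM in WT1 to WT4. CKO2 and CKO3 were above all WT libraries, and CKO1 was below all of them except WT4. The log2 change was 0.27 with a 95% interval of -0.09 to 0.62 (limma adjusted p = 0.311). None of the 5 tested members other than Id2 passed. Among all 8513 genes tested, 7.17% passed in either direction and 5.74% were lower in CKO.

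The ratio of the 2 receptor genes separated the groups although neither gene did. Tgfbr2 was 2.62, 3.12, 2.95 and 4.04 times the level of Tgfbr1 in CKO1 to CKO4, against 1.83, 1.77, 2.04 and 1.75 times in WT1 to WT4. The mean ratio was 3.19 ± 0.61 in CKO and 1.85 ± 0.13 in WT (SD, n = 4 each). A ratio within a library does not depend on how the library was scaled. It was computed after the values had been seen and is given with no test. Among the 10 pairs of tested members without Id2 it was the 1 pair whose ratios did not overlap, while 22.0% of the other 8512 tested genes had ratios to Tgfbr1 that did not overlap. The ratio shows unequal levels of both genes and not which of them changed.

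**Figure D4:**
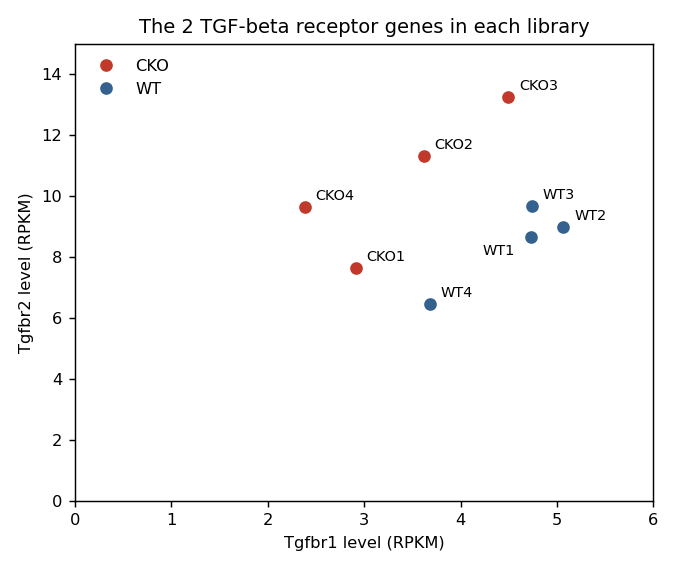
Level of Tgfbr2 against level of Tgfbr1, both in RPKM, with 1 point per library (CKO red, WT blue). The CKO libraries lie at 2.62 to 4.04 units of Tgfbr2 per unit of Tgfbr1 and the WT libraries at 1.75 to 2.04.

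Library composition varied alongside several of these genes within CKO. CKO3 had the highest level of Tgfb1, Tgfbr1, Tgfbr2 and Smad7 among the CKO libraries and the lowest share of acinar enzyme reads, 53.6%. CKO1 and CKO4 had the highest such shares, 62.3% and 61.8%, and the lowest levels of Tgfbr1, Tgfbr2 and Smad7. Id2 was highest in CKO2, where that share was 56.9%. When acinar enzyme reads were taken out of the totals, the log2 change of Tgfbr2 was 0.34 (limma adjusted p = 0.113) and that of Tgfbr1 -0.31 (adjusted p = 0.13). Beyond that scaling, the part of library composition was not tested.

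The order of levels also differed between the groups. In CKO the medians ran from Tgfbr2 (10.5 RPKM) through Tgfb1 (9.01), Id2 (7.15), Id3 (4.12), Tgfbr1 (3.27), Id1 (2.42), Smad7 (0.992), Smad6 (0.274) and Bambi (0.0585) to Id4 (0.0111). In WT they ran from Id2 (23.3 RPKM) through Tgfb1 (10.01), Tgfbr2 (8.82), Tgfbr1 (4.74), Id3 (3.49), Id1 (3.09), Smad7 (0.827), Smad6 (0.266) and Bambi (0.102) to Id4 (0.0604). Neighbours in the CKO order whose ranges overlapped were Tgfbr2 with Tgfb1, Tgfb1 with Id2, Id3 with Tgfbr1, and Tgfbr1 with Id1. In WT the overlapping neighbours were Tgfb1 with Tgfbr2, Tgfbr1 with Id3, Id3 with Id1, and Bambi with Id4.

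Few genes in the rest of the pathway passed the test. Of 73 other listed symbols, Ctgf was absent as an older name of Ccn2, which was listed and present. The other 72 were in the table, and 51 were tested. Of these 3 rose, 1 fell and 47 did not pass, so 7.84% passed, close to the 7.17% of all tested genes. Their median log2 change was -0.06, against -0.12 for all genes tested. No gene passed among the 4 tested ligands, the 8 other receptors, the 5 signalling Smads, the 4 extracellular antagonists and binding proteins or the 8 intracellular inhibitors (limma, adjusted over all 8513 genes).

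Among ligands, Inhbb, a subunit of activins and inhibins, was at 1.54, 2.28, 2.02 and 2.51 RPKM in CKO1 to CKO4, against 3.504, 2.58, 4.09 and 2.81 RPKM in WT1 to WT4. Its groups did not overlap, with a log2 change of -0.45 (SE 0.14, limma adjusted p = 0.0749). Bmp1, a protease that processes procollagens, had a log2 change of 0.25 (adjusted p = 0.262), and the ligand gene Bmp7 one of 0.04 (adjusted p = 0.818). Bmp2, singled out once its values were known, lay below the filter and had 0.361, 0.506, 0.674 and 0.551 RPKM in CKO1 to CKO4, against 0.115, 0.114, 0.314 and 0.184 RPKM in WT1 to WT4. These groups did not overlap, and without the filter the limma adjusted p of Bmp2 was 0.0523. Among all 16888 genes, 14.3% had groups that did not overlap. Of the receptors, the activin type I receptor Acvr1b (log2 change -0.34, adjusted p = 0.152), the BMP type I receptor Bmpr1a (-0.34, adjusted p = 0.192) and the endothelial receptor Acvrl1 (-0.23, adjusted p = 0.354) had the smallest p.

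No signalling Smad passed the test. Smad1, which carries BMP signals, averaged 5.56 ± 0.83 RPKM in CKO and 5.28 ± 0.55 RPKM in WT (SD, n = 4 each; limma adjusted p = 0.8). Smad3, which carries TGF-beta signals, averaged 16.8 ± 5.4 RPKM in CKO and 20.9 ± 4.4 RPKM in WT (SD, n = 4 each; adjusted p = 0.348). Smad2 had a log2 change of -0.18 (adjusted p = 0.322). Among extracellular antagonists and binding proteins, Twsg1 (-0.21, adjusted p = 0.277), the latent TGF-beta binding protein gene Ltbp3 (0.16, adjusted p = 0.354) and Fstl1 (-0.17, adjusted p = 0.588) had the smallest p. Fst, the activin antagonist follistatin likewise singled out with its values known, was at 0.928 ± 0.169 RPKM in CKO and 0.471 ± 0.139 RPKM in WT (SD, n = 4 each). It lay below the filter, and without that its limma adjusted p was 0.0672. Of the intracellular inhibitors, Fkbp1a (-0.28, adjusted p = 0.19), Ski (-0.33, adjusted p = 0.213) and Pmepa1 (-0.11, adjusted p = 0.736) came closest to the threshold. Tgif2, likewise singled out and below the filter, was at 0.178 ± 0.035 RPKM in CKO and 0.0987 ± 0.0397 RPKM in WT (SD, n = 4 each). Its groups did not overlap, and without the filter its limma adjusted p was 0.147.

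Of 13 tested TGF-beta target genes, 2 rose, 0 fell and 11 did not pass, so 15.4% passed against 7.17% of all tested genes. The log2 changes of the 13 genes ran from -0.49 (Tgfbi) to 1.14 (Cdkn1a), with a median of -0.02. Cdkn1a, the cell cycle inhibitor p21 and also a target of p53, was at 125, 199, 196 and 167 RPKM in CKO1 to CKO4, against 99.4, 47.2, 81.4 and 87.6 RPKM in WT1 to WT4. All CKO libraries were above all WT libraries (log2 change 1.14, SE 0.22, limma adjusted p = 0.0152). Thbs1, the matrix protein thrombospondin 1 that can activate latent TGF-beta, was at 20.3, 23.8, 31.6 and 24.97 RPKM in CKO1 to CKO4, against 12.7, 15.1, 20.4 and 11.1 RPKM in WT1 to WT4. CKO1 lay just below WT3 (log2 change 0.74, SE 0.18, limma adjusted p = 0.0305). The Thbs1 call was lost without CKO2, CKO3, CKO4, WT1, WT2 or WT4, with an adjusted p of 0.052 to 0.0837, and without a filter on low values (0.075).

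Among 9 tested genes whose products interact with Id proteins or with Id2, 1 rose, 1 fell and 7 did not pass, so 22.2% passed against 7.17% of all tested genes. Myc, a transcription factor known to activate Id2, was at 14.8, 19.9, 19.4 and 24.98 RPKM in CKO1 to CKO4, against 11.5, 7.06, 10.3 and 9.34 RPKM in WT1 to WT4 (log2 change 0.98, SE 0.17, limma adjusted p = 0.00808). Myc was therefore higher in every CKO library, while Id2, which was chosen on its difference, was lower in every one. A relation between Myc and Id2 was not tested. Ets1, a transcription factor of the ETS family, some of whose members bind Id proteins, averaged 3.61 ± 0.89 RPKM in CKO and 5.51 ± 0.55 RPKM in WT (SD, n = 4 each; log2 change -0.51, limma adjusted p = 0.0492). The Ets1 call was lost when any 1 library other than CKO3 was left out (adjusted p of 0.0652 to 0.121), and also with a pseudocount of 0.1 (0.0524), no filter (0.0887), a filter at 0.3 RPKM (0.0521) or limma-voom (0.0557).

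**Figure D5:**
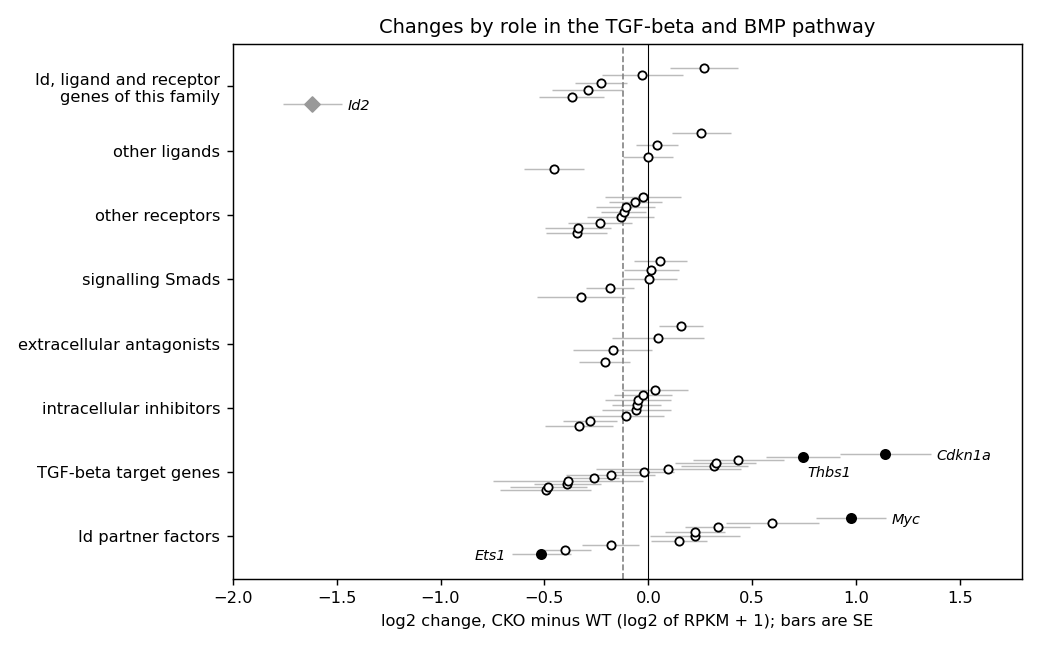
Log2 change, CKO minus WT, with SE for each tested gene, grouped by role. The row of extracellular antagonists also holds the latent TGF-beta binding protein gene Ltbp3. Filled circles passed the adjusted threshold of 0.05, open circles did not, the grey diamond is Id2, given with no test, and the dashed line is the median of all tested genes (-0.12). Cdkn1a, Thbs1 and Myc lie to the right, Ets1 to the left, and most other genes lie within 0.5 of 0.

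Marker sums of several cell types were lower in CKO as well. Duct marker sums were 341 to 623 RPKM in CKO and 644 to 754 RPKM in WT, with 6 of 7 genes lower in mean in CKO. Monocyte and macrophage marker sums were 147 to 329 RPKM in CKO and 286 to 562 RPKM in WT, with 7 of 8 lower. Lyz2 made up most of these sums, at 109.3 to 250.1 RPKM in CKO and 206.5 to 434.3 RPKM in WT. Neutrophil sums were 13.8 to 45.2 RPKM in CKO and 36.5 to 82.3 RPKM in WT, with 7 of 7 lower. Markers of T, NK and innate lymphoid cells, in which Id2 is a lineage factor, summed to 1.27 to 2.29 RPKM in CKO and 1.45 to 4.50 RPKM in WT, with 8 of 8 lower in mean. Thy1, which other cells express too, made up most of that sum, and 4.50 RPKM was WT2 alone, the other WT libraries being at 1.45 to 2.31 RPKM. None of these markers was at 0 in all 8 libraries. Over all marker lists, 5 of 47 tested genes fell and 1 rose, so 12.8% passed against 7.17% of all tested genes (limma). Those that fell were the duct factor Sox9 (log2 change -0.87), the monocyte and macrophage genes Ccr2 (-0.87) and Tyrobp (-0.76), the endothelial receptor Kdr (-0.55) and the acinar amylase Amy2a5 (-1.13). The gene that rose was the islet hormone gene Gcg (0.55). The amylase genes differed among themselves, with Amy2a5 at 268 RPKM in CKO and 566 RPKM in WT. The far more abundant Amy2a1, outside the lists, was at 17330 RPKM in CKO and 16790 RPKM in WT (log2 change 0.05, limma adjusted p = 0.8). Amy2b, also outside the lists, fell (-1.21, limma adjusted p = 8.46e-05), and Amy1, Amy2a2, Amy2a3 and Amy2a4 did not pass. The part of these cell types in the Id2 difference was not tested.

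Islet and acinar markers did not share that direction. Endothelial sums were 22.5 to 28.9 RPKM in CKO and 23.8 to 35.9 RPKM in WT, and stellate cell and fibroblast sums 75.3 to 106 RPKM in CKO and 74.7 to 139 RPKM in WT, each with 6 of 8 genes lower in CKO. B and plasma cell sums were at most 0.496 RPKM in CKO, against 13.2 RPKM in WT2, 4.55 RPKM in WT3, 0.216 RPKM in WT1 and 0.142 RPKM in WT4, with 6 of 6 genes lower in CKO. Fat cell sums were 22.2 to 28.9 RPKM in CKO and 22.9 to 58.7 RPKM in WT, highest in WT2, with 5 of 5 lower. Fabp4 made up most of these sums, at 21.5 to 27.5 RPKM in CKO and 22.8 to 45.5 RPKM in WT. WT2 was also the highest library for Id2, Id3, Tgfb1, Tgfbr1 and Smad6. Without WT2 the log2 change was -1.57 for Id2, -0.19 for Tgfb1 and -0.325 for Tgfbr1. Islet markers were higher in CKO for 6 of 6 genes (1204 to 1896 RPKM in CKO and 791 to 1520 RPKM in WT). Acinar markers were higher for 4 and lower for 4 of 8.

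The 3 tested genes outside the family that followed Id2 most closely over the 8 libraries, by Pearson correlation of log2(RPKM + 1), were Glod4 (r = 0.988), Tex261 (r = 0.986) and Naa50 (r = 0.983). Glod4 averaged 2.79 ± 0.28 RPKM in CKO and 4.05 ± 0.21 RPKM in WT, Tex261 8.73 ± 0.34 RPKM in CKO and 11.03 ± 0.26 RPKM in WT, and Naa50 5.70 ± 0.56 RPKM in CKO and 8.94 ± 0.27 RPKM in WT (SD, n = 4 each). The points share the same 8 libraries in 2 groups, so the correlations mainly restate the difference between groups.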

How the data were processed

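RNA from 8 pancreas samples, 4 CKO and 4 WT, was sequenced on an Illumina instrument, per the labels' protocols. Reads were referred to mm10, per the submitters' processing notes; no source used here names the aligner, the counter, the annotation or the strand setting. The deposited table holds 16888 genes in RPKM, a unit read from the values: for 99.93% of the 16068 genes detected in 2 or more libraries, a single length turned all values into whole reads (tolerance 0.05). Reads were recovered this way. A last unnamed column (1 column, 8 values) was not used. Intervals and floors of 3 reads cover counting error only.

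The 8513 genes that reached 1 RPKM in 4 or more libraries were tested with limma 3.58.1 in R 4.3.3 on log2(RPKM + 1), fitting group alone, with robust variances, a trend over the mean and Benjamini-Hochberg adjustment over all 8513 genes at a threshold of 0.05. Log2 changes on this scale understate those of low genes. Exact permutation tests, promoter searches and plots used SciPy 1.17.1, Matplotlib 3.10.9, NumPy 2.4.6 and pandas 2.3.3 under Python 3.11.15. Positions are from GENCODE M21, and sequences from RefSeq on GRCm38.p6. Recovery and the limma step were tested on simulated data. Members, gene lists and tests were chosen with earlier results of these data known. Named genes were the members, each list's genes past the threshold or otherwise its 3 with the smallest p, and the 3 most correlated with Id2. Alternatives were a pseudocount of 0.1, no filter, a filter at 0.3 RPKM, variances without a trend, median centring, totals without acinar enzymes, limma-voom, a block for replicate number, and the omission of each library.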

Additional observations from a re-analysis of the deposited data

Results flagged for a closer look

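Among 29 members and named pathway genes, each group of 4 libraries was checked for a library far from the other 3, which made 58 groups, and 2 were flagged where chance flags about 1 group in 20. Bmp1 was at 2.91 RPKM in WT2, far above the other WT libraries (1.67 to 1.83 RPKM). Acvrl1, an endothelial receptor gene, was at 3.21 RPKM in WT2, with 1.87 to 2.04 RPKM in WT1, WT3 and WT4. WT2 also had the highest sums of endothelial (35.9 RPKM), stellate and fibroblast (139 RPKM), and fat cell markers (58.7 RPKM); their part in these values was not tested.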

How the results depend on the processing

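The count of genes past the threshold was 610, with 19.8% of them higher in CKO, and it ran from 223 (without WT1) to 705 (without CKO1) when 1 library was left out: 235 without CKO2, 680 without CKO3, 279 without CKO4, 271 without WT2, 326 without WT3 and 280 without WT4. Median centring gave 572, of which 53.3% were higher, and totals without acinar enzymes 644, of which 36.2% were higher, and the share was 36.3% without CKO1 and 13.5% without CKO3, so the balance of directions moved with the scaling and with single libraries; the median log2 change of all genes was -0.12, -0.02 and -0.06 in the 3 scalings. Over 16 alternatives the 5 tested members other than Id2 kept direction and side of the threshold in 76 of 80 values. The exceptions were all Id3, whose log2 change was 0.075 with median centring, 0.0362 with totals without acinar enzymes, 0.0618 without CKO2 and 0.183 without WT2 (-0.145 to 0.183 over the omissions). Of 304 values of 19 pathway genes, 18 lost a call, all Ets1 or Thbs1, and 2 changed sign: Pmepa1 (0.054 without CKO4; -0.216 to 0.054 over the omissions) and Smad1 (-0.0184 without CKO3; -0.0184 to 0.125). The replicate number as a block gave 548 genes and changed no call of a member or named gene. Same-numbered libraries deviated from their group means with correlations of -0.12, -0.32, 0.14 and 0.03. Those between differently numbered libraries ran from -0.283 to 0.218. The numbers thus gave no sign of pairing, but so few correlations cannot exclude it, and the labels do not say. A planned quasi-likelihood test on recovered reads was not run, since the deposited unit is RPKM. With 0 to 38 reads per library, depth limits Id4, Bambi and Smad6.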
